A study of Mus musculus with 6 samples.

Results

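Cdr1, C230004F18Rik, Oip5os1 and Oip5 were examined as 4 genes of the 57010 in the deposited count table. They were chosen by name, with their counts in these samples known, for their place in the RNA circuit around the microRNA miR-7. The values between the groups are therefore given as a description, with no test. All 4 were found by gene identifier; Oip5os1, the RNA known as Cyrano, carries the older symbol 1700020I14Rik in GENCODE release M21. The samples were 3 of wild-type mouse embryonic stem cells (ESC) and 3 of wild-type primary cortical neurons. The neurons came from cortices at embryonic day 16.5 and had been kept for 7 days in vitro. No perturbation is described for either group, and the samples had been collected as pluripotent and neuronal reference states for work on the gene Rai1. Nothing in the labels says whether the replicates were separate cultures or animals, so p-values measure only the spread between these samples, which may be technical.

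Cdr1 is annotated as a small protein-coding gene on the X chromosome. The strand opposite to it gives rise to Cdr1as, a circular RNA abundant in neurons that is formed by back-splicing of a single exon of a long noncoding host transcript, here C230004F18Rik. Cdr1as binds miR-7 at many sites and is cut at a single site paired with miR-671. Cyrano, a long noncoding RNA, carries a highly complementary miR-7 site through which miR-7 is degraded, and loss of Cyrano is known to lower Cdr1as in mouse brain. Oip5, next to Cyrano on the genome, encodes a centromere protein of the Mis18 complex, which prepares centromeres for new CENP-A in dividing cells. A circular RNA has no poly(A) tail, and these libraries were primed with oligo-dT. The table has no entry for the circle itself, so no value is given for Cdr1as.

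The microRNAs of the circuit are shown first, because their seeds (bases 2 to 8, in capitals) define the sites counted at both loci. The sequences are RefSeq's, on GRCm38.p6.
mmu-miR-7a-5p: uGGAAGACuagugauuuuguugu
mmu-miR-7b-5p: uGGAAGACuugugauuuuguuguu
mmu-miR-671-5p: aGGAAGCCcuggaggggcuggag
Both miR-7 forms have the seed GGAAGAC and differ by A10U, with miR-7a-5p's base first and positions counted from the 5′ end, apart from an added last base in miR-7b-5p. No other mature mouse microRNA in the RefSeq table had this seed. The seed of miR-671-5p is GGAAGCC. The genes Mir7-1, Mir7-2, Mir7b and Mir671 had 0 counts in all 6 libraries; precursors of this size are not captured well by poly(A) libraries, and mature microRNAs were not measured.

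In the deposited positions, Cdr1 (ENSMUSG00000090546.3) is a single exon of 1554 bases at chrX:60227611-60229164 on the minus strand. C230004F18Rik (ENSMUSG00000071753.14) spans chrX:60159984-60247391 on the plus strand, with 22140 exonic bases. All exonic bases of Cdr1 (100%) lie within exons of C230004F18Rik, where they make up 7.02% of its exonic bases. The shortest listed host exon that holds Cdr1 is 2927 bases long (chrX:60226854-60229780). The same exon of 2927 bases is present in GENCODE release M21 on GRCm38 (chrX:61183248-61186174), and its transcript sequence was searched for the miR-7 seed match GTCTTCC on the host strand. It holds 123 matches, 79 of them opposite Cdr1 and 44 outside it. Within the bases shared with Cdr1 that is 50.8 matches per kb, with a median distance between neighbouring matches in the exon of 18 bases. On the Cdr1 strand of the exon GTCTTCC occurs 0 times. Of the 7499 transcripts in that release with a length of 1400 to 1700 bases, 13.9% hold the match at all, and the most in any of them is 4. The most in any transcript of another gene, of any length, is 11. The stretch of 150 bases within Cdr1's span with the most matches is printed on the host strand, with the 8 matches in capitals (GRCm38, chrX:61184282-61184431, plus strand).
Cdr1 locus, host strand: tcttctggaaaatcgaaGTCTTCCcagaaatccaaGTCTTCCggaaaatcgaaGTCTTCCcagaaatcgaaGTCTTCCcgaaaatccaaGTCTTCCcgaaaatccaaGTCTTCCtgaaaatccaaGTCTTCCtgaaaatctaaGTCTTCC
The repeats stand at near-even steps, each a short linker followed by the match. RefSeq's promoter window for Cdr1 on the minus strand lies in this repeat region as well and holds the seed as DNA, GGAAGAC, 5 times, while 2.70% of 32851 promoter windows of that length hold it at least once.

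**Figure D1:**
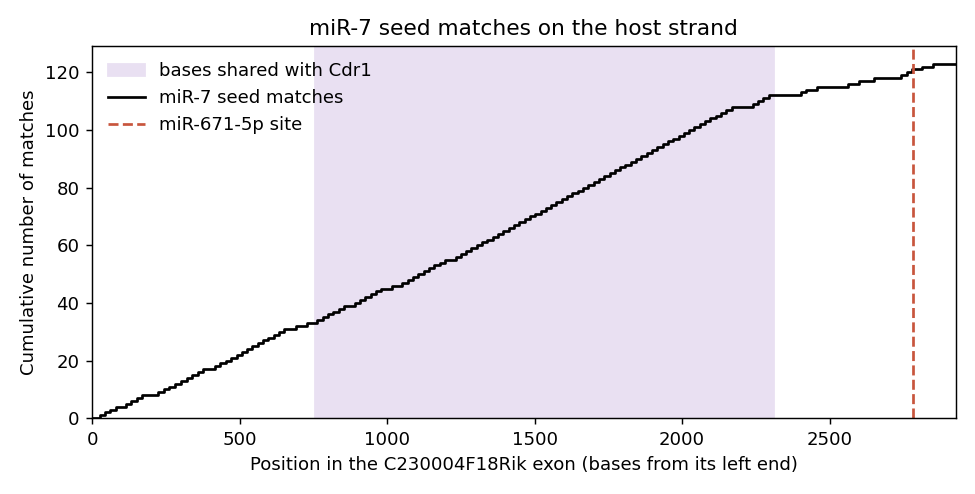
Cumulative number of miR-7 seed matches (y axis) against position in the 2927-base host exon (x axis, bases from its left end on the plus strand). The shaded bases are those shared with Cdr1 and hold 79 of the 123 matches; the dashed line marks the start of the best miR-671-5p match.

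The best ungapped complement of miR-671-5p in the exon begins at base 2782, outside Cdr1, and pairs with 19 of the 23 bases. The next best position pairs with 17. The site is printed on the host strand with the paired bases in capitals (GRCm38, chrX:61186029-61186051, plus strand).
miR-671-5p site: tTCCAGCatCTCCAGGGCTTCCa
Oip5os1 holds 2 matches to the miR-7 seed in its transcript of 8300 bases. Among 1092 transcripts within 10% of that length, 47.4% hold at least 1. At the second of the matches, pairing goes on past the seed. A run of 13 bases upstream of it is complementary to bases 11 to 23 of miR-7a-5p. The site is printed with both paired runs in capitals (GRCm38, chr2:119602132-119602161, plus strand).
Cyrano miR-7 site: taagaACAACAAAATCACcaatGTCTTCCa
The other match had no such run of 4 or more bases. Cdr1's host exon thus has many seed matches, and Cyrano has a single extended one. A match is a description of the letters and not evidence that a microRNA was bound in these cells.

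Library totals were 1368303 to 1775055 counts for ESC and 513425 to 624792 for neurons. Counts were scaled to CPM, counts per 1e6 of the library, with library totals adjusted by the trimmed mean of M-values (TMM). A count of 3, used as the detection floor, equals 2.26 to 2.90 CPM in ESC and 3.92 to 4.81 CPM in neuron libraries; floors and intervals cover counting error only. Replicates differed beyond sampling noise in all 6 pairs, with a chi-square per degree of freedom of 1.31 to 4.16. The labelled batch separates the samples exactly as the group does, so these cannot be told apart, and no value could be computed within a batch that holds both. The word empty stands in the library names of neuron replicates 2 and 3 and not in that of replicate 1, and the labels do not say what it means. The summed level of 19 pluripotency markers was 276 to 365 CPM in ESC and 7.45 to 10.4 CPM in neurons, where 12 of the 19, Pou5f1, Nanog and Zfp42 among them, were at 0. The summed level of 23 neuron markers was 302 to 379 CPM in ESC and 1245 to 1484 CPM in neurons, and 0 of the 23 were at 0 in all neuron libraries. Of 8 neuron markers tested, edgeR called 4 higher and 3 lower in neurons. Within ESC the sums of the pluripotency and neuron markers overlapped in range. The part of the strand setting in this was not tested. Markers of other brain cells were present in the neuron libraries. The 8 astrocyte markers summed to 48.1 to 76.0 CPM (5.80 to 10.9 in ESC), and of these Aldh1l1 was at 0. The 9 oligodendrocyte lineage markers summed to 270 to 299 CPM (42.9 to 61.9 in ESC), with 2 of the 9, Mag among them, at 0. The 10 microglial and vascular markers summed to 128 to 145 CPM (210 to 275 in ESC), with C1qa, C1qb, Tmem119, Pdgfrb and Rgs5 at 0. Their part in the results was not tested. As these are bulk samples, fewer cells of a type and less RNA per cell cannot be told apart.

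Cdr1 had counts in the neuron libraries alone. Its count was 0 in every ESC library, and 1005, 1529 and 602 in neuron replicates 1, 2 and 3. The groups did not overlap, and every neuron library was far above the floor. On the CPM scale the neuron levels were 1312, 2278 and 965, a mean of 1518 ± 681 (SD, n = 3). Against a floor of 3 counts per ESC library, the level assigned to Cdr1 was at least 578-fold higher in neurons. Per kb of exon, the neuron level was 977 ± 438 CPM. By mean neuron CPM per kb, Cdr1 ranked 89 among 22352 genes with at least 1 neuron count. Its counts made up 0.161%, 0.275% and 0.117% of those neuron libraries.

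C230004F18Rik, the annotated host of the circle, was counted once in all, in ESC replicate 2, and stood at 0 in the other libraries (0, 1 and 0 in ESC; 0, 0 and 0 in neurons). Both groups lay under the floor, so no fold is given. The level assigned to the host in neurons was under 0.177 to 0.217 CPM per kb. Cdr1 on the opposite strand was assigned 621 to 1466 CPM per kb. The host has 20586 exonic bases with no Cdr1 opposite, and these too received no neuron count. If reads were counted on the strand opposite to their own, host reads from these bases would not enter the host's count. The values therefore bound the counts assigned to the host and not its RNA. Cdr1 thus held 100% of the counts of the pair in each neuron library, with Wilson 95% lower bounds of 99.6%, 99.7% and 99.4%. Every base of Cdr1 is also host exon, so counting that ignored strand and left out reads shared by both genes would have left Cdr1 at 0. The strand setting is not stated, and which strand the reads at Cdr1 came from cannot be told from this pair. Such a split was not rare. Of 2564 pairs of genes that share exonic bases on opposite strands and have at least 100 neuron counts, 22.5% had at least 99% of these counts on 1 gene. In 182 of these pairs, as in that of Cdr1, a gene lay wholly within exons of its partner. The inner gene held a median of 95.5% of the neuron counts in them, at least 99% in 45 pairs and all of them in 16. The outer gene held at least 99% in 33. Within 200 kb of Cdr1, the 6 other annotated genes had 0 counts in all 6 libraries.

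**Figure D2:**
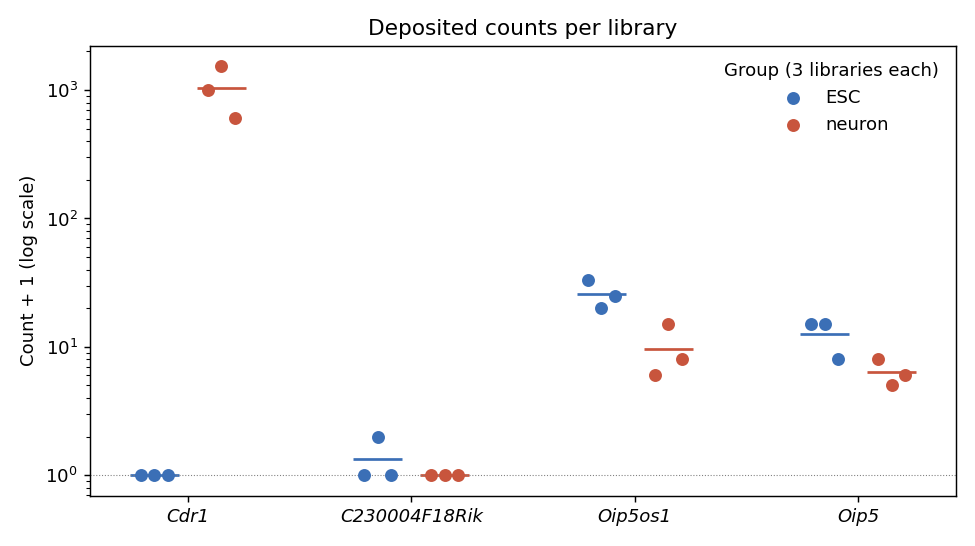
Deposited counts per library plus 1 (y axis, log scale) for the 4 genes, with ESC in blue and neurons in red; points are libraries and bars are group means. Cdr1 lies at 0 in ESC and at 602 to 1529 in neurons, C230004F18Rik is at 0 or 1 throughout, and Oip5os1 and Oip5 stay at 4 to 32 counts.

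The counts assigned to Oip5os1 and Oip5 were low in both groups. As the strand setting is not stated, these counts may not reflect the RNA of either gene. Oip5os1 (ENSMUSG00000085438.3, chr2:119424757-119437983, plus strand, 10739 exonic bases) had counts of 32, 19 and 24 in ESC (replicates 1 to 3), against 5, 14 and 7 in neurons. That is 24.1, 18.4 and 21.7 CPM in ESC and 6.53, 20.9 and 11.2 CPM in neurons, and neuron replicate 2 lay within the ESC range. The means were 21.4 ± 2.87 and 12.9 ± 7.31 CPM (SD, n = 3), 1.66-fold higher in ESC, or a log2 ratio of neuron to ESC of −0.73. Scaled to total counts the log2 ratio was −0.0054, so the size of this difference rests on the scaling. It also rests on neuron replicate 2, without which the log2 ratio was −1.34. Per kb of exon the level was 1.99 ± 0.27 CPM in ESC and 1.20 ± 0.68 CPM in neurons, against 977 CPM for Cdr1 in neurons.

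Oip5 (ENSMUSG00000072980.4, chr2:119439993-119448950, minus strand, 1778 exonic bases) had counts of 14, 14 and 7 in ESC against 7, 4 and 5 in neurons. Its CPM was 10.5, 13.5 and 6.33 in ESC and 9.14, 5.96 and 8.01 in neurons, and the groups overlapped. The means of 10.1 ± 3.62 and 7.70 ± 1.61 CPM (SD, n = 3) gave a log2 ratio of −0.40, which turned to 0.34 when scaled to total counts. Oip5 had too few counts for the filter and was not tested. Per kb of exon, Oip5 stood at 5.70 ± 2.04 CPM in ESC and 4.33 ± 0.91 CPM in neurons, above Oip5os1 in both. By the counts assigned to each gene, the order of levels per kb in neurons was Cdr1, Oip5, Oip5os1 and C230004F18Rik. The ranges of Oip5 (3.35 to 5.14) and Oip5os1 (0.61 to 1.94) did not overlap there, nor did they in ESC (3.56 to 7.62 and 1.71 to 2.24).

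Oip5os1 is named for the strand opposite to Oip5, but in the deposited positions they share 0 exonic bases. They stand tail to tail with 2009 bases between them, and 0 genes lie opposite the exons of Oip5os1. The pair therefore differs from Cdr1 and its host, whose exons coincide. At its other end Oip5 shares 172 exonic bases, head to head, with Nusap1, a spindle microtubule gene. Nusap1 had counts of 447, 277 and 399 in ESC against 44, 46 and 36 in neurons, falling from 322 ± 48.2 to 61.2 ± 6.34 CPM (−2.39 ± 0.17 SE on the log2 scale; edgeR adjusted p 6.07e-16). It held 95.2% to 98.3% of the counts of that pair in ESC and 86.3% to 92.0% in neurons. Within 200 kb of Oip5os1, 8 of 16 other genes had at least 10 counts over the 6 libraries. Of these 8, Nusap1 and the chromatin remodeller gene Ino80 were tested. Ino80 had counts of 26, 36 and 35 in ESC against 4, 6 and 3 in neurons (−2.14 ± 0.41 SE on the log2 scale; edgeR adjusted p 1.11e-05). The transcription elongation gene Rtf1 was at 0 in every neuron library and had 14, 15 and 14 counts in ESC. Rpap1 had 20, 12 and 13 against 0, 2 and 1, the receptor kinase gene Tyro3 10, 7 and 12 against 1, 1 and 0, and Exd1 7, 6 and 6 against 0, 3 and 0. Itpka, a kinase gene of inositol phosphate metabolism, had 3, 2 and 8 against 2, 2 and 4, and Ltk had 13, 5 and 10 against 4, 5 and 4. Neuron libraries held fewer counts in all, so these raw values are not levels. The limit on strand holds for the neighbouring genes as well.

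**Figure D3:**
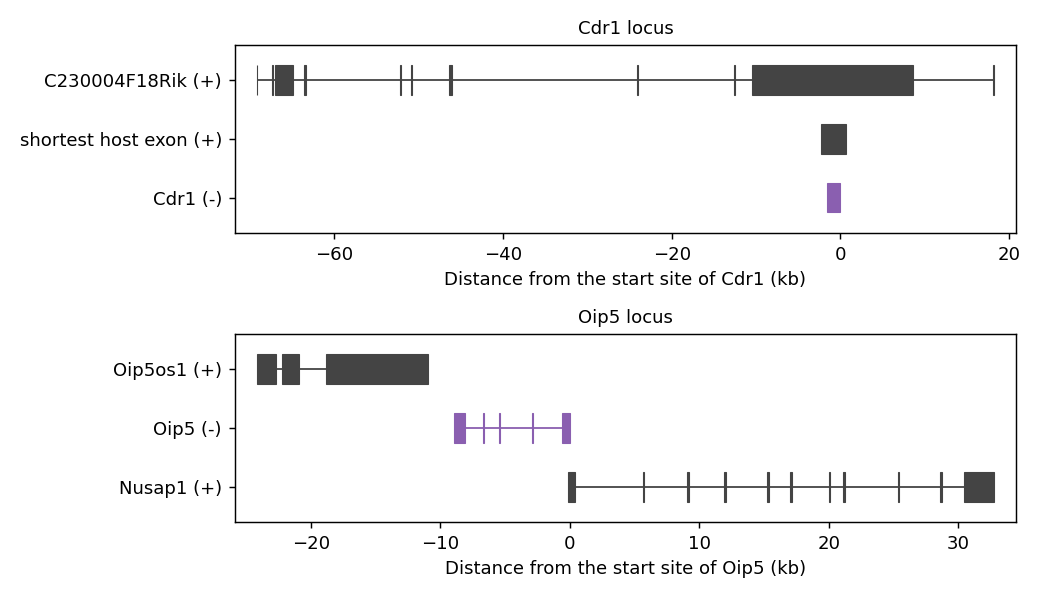
Exons (boxes) and spans (lines) of the genes at both loci in the deposited positions, with distance in kb from the start site of Cdr1 (upper panel) or Oip5 (lower panel) on the x axis and the strand in brackets. Cdr1 sits inside the shortest listed host exon of 2927 bases, and inside a longer one, while Oip5os1 and Oip5 do not touch and Oip5 meets Nusap1 at its start.

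Cdr1 varied more between the neuron replicates than nearly all genes of enough depth. The highest of its neuron CPM values was 2.36 times the lowest. Among 1012 genes with a mean of at least 100 neuron counts and a count in every neuron library, the median ratio was 1.19 and the 99th percentile 1.79. Only 5 genes (0.494%), Cdr1 included, had a ratio at least as large. Replicate 2 was highest and replicate 3 lowest. The other 4 of the 5 genes were Tsix, 9330182L06Rik, Lims2 and Ube3a. Tsix, the antisense partner of the X-inactivation RNA Xist, had 2, 1934 and 1727 counts in neuron replicates 1 to 3, and 4, 0 and 0 in ESC. Xist, which shares 1980 exonic bases with it, had 2, 7 and 9 counts in neurons and 1514, 1452 and 1160 in ESC. Xist is known from somatic cells with an inactive X and Tsix from undifferentiated stem cells, so these counts lie the other way round from what is known, and the part of the strand setting in this was not tested. The replicates with high Tsix were thus the highest and the lowest for Cdr1. 9330182L06Rik had 117, 278 and 74 counts, and Ube3a, which encodes an imprinted ubiquitin ligase, had 306, 409 and 160. Both followed the order of Cdr1, replicate 2 above 1 above 3, while Lims2 did not (68, 97 and 169). That order was shown by 18.8% of the 1012 genes and by 5 of the 10 with the largest ratios. The remaining pair among these 5, Gm26981 (152, 169 and 73 counts) and Snhg14 (263, 379 and 166), was picked out after the values had been seen. Snhg14, a long noncoding RNA known as the source of the Ube3a antisense transcript, shares 1803 exonic bases with Ube3a. The part of any property of the libraries in this order was not tested.

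**Figure D4:**
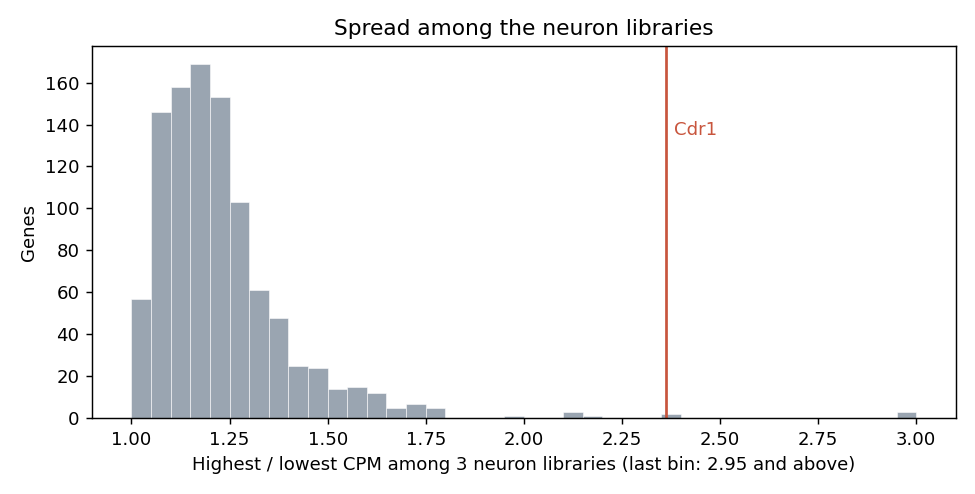
Number of genes (y axis) by the ratio of the highest to the lowest CPM among the 3 neuron libraries (x axis), for 1012 genes with a mean of at least 100 neuron counts; the last bar collects the 3 genes above the plotted range. The line marks Cdr1 at 2.36, against a median of 1.19.

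The tested genes whose levels over the 6 libraries were most like Cdr1 were found by Euclidean distance between log2 CPM profiles centred on each gene's mean, among 3347 genes with an average log2 CPM of at least 5. The median distance to Cdr1 was 12.4. The nearest was Gm10308 (distance 0.81), at 0 in all ESC libraries, with 996, 848 and 658 counts in neurons. Next came Gm33366 (0.98), opposite C130071C03Rik, and ENSMUSG00002075463 (1.15), which shares 87 bases with the imprinted gene Nnat. Gm13872 (1.25), opposite the glutamate transporter gene Slc1a2, and Gm26953 (1.28), opposite the noncoding gene Miat, followed. Each of the 5 has a gene across from its exons, as have 89.1% of the 3348 genes at this level. For Oip5os1 the nearest genes were Fam208a (0.44), Usp46os1 (0.50), Slc20a1 (0.51), Lrrc8dos (0.55) and ENSMUSG00000025408 (0.56), with a median distance of 2.27. Fam208a, a silencing factor gene, had counts of 152, 119 and 132 in ESC against 42, 73 and 45 in neurons, with replicate 2 highest among neurons as for Oip5os1.

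The wider circuit was read from edgeR's quasi-likelihood test, fitted on all 7150 genes that passed the count filter and adjusted over all of them. There 85.6% of the tested genes passed, 47.0% as higher and 38.6% as lower in neurons, so a call on its own says little about a list. Scaled to total counts, 86.5% passed, 56.6% as higher and 29.9% as lower. Over all 7150 genes the median log2 fold change was 0.37. The filter asks for a minimum level in 3 libraries, so a gene that reached it in 1 group alone had to differ, and for such genes counts are given with no test. They were 46.0% of the tested genes. Here and below, a group counts as reaching the minimum if at least 1 of its libraries did. Of the 3860 genes that reached the minimum in both groups by this rule, 24.8% were called higher and 50.4% lower in neurons. The strand setting is not stated, so directions here are those of assigned counts and may not be those of the gene's RNA.

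Of 16 genes for microRNA processing, silencing and miR-7 decay, 5 were tested and 4 passed, 2 in each direction, with a median log2 fold change of 0.43. Of the 5, 3 reached the minimum in both groups. Hnrnpk, whose transcript hosts Mir7-1, fell from 173 ± 18.9 to 34.9 ± 8.0 CPM (−2.32 ± 0.21 SE on the log2 scale; edgeR adjusted p 6.07e-13). It shares 330 bases with Rmi1, which fell as well (4343, 3058 and 3539 counts against 260, 265 and 249; edgeR adjusted p 1.23e-25). Chpf2, the gene at which Mir671 lies, rose from 273 ± 36.8 to 400 ± 22.6 CPM (0.55 ± 0.13 SE on the log2 scale; edgeR adjusted p 0.000127). Smarcd3, a chromatin remodeller gene that shares 2466 bases with Chpf2 on the opposite strand, rose too (counts of 254, 242 and 265 against 356, 254 and 302; edgeR adjusted p 7.97e-09). Zswim8, the ubiquitin ligase gene needed for miR-7 decay by Cyrano, had counts of 18, 13 and 9 in ESC against 11, 10 and 11 in neurons and did not pass (edgeR adjusted p 0.284). The other 2 genes reached the minimum in 1 group. Drosha, the nuclear processing enzyme, had counts of 23, 14 and 19 in ESC against 2, 1 and 0 in neurons, a ratio of ESC to neuron of 11.1 with an exact 95% counting interval of 3.61 to 55.4. Tarbp2, a Dicer partner gene, stood at 8.09 ± 3.23 CPM in ESC and 24.6 ± 8.16 CPM in neurons. Ago2, which encodes the slicer, had counts of 8, 9 and 10 in ESC against 4, 8 and 6 in neurons, too few to be tested.

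Of 23 genes reported as miR-7 targets, 6 were tested and 4 passed, 3 as higher and 1 as lower; the median log2 fold change was 1.61. All 4 that passed had reached the minimum in 1 group alone, so the list gives no test of a shared direction. Basp1, a growth cone protein gene, had counts of 4, 0 and 3 in ESC against 367, 359 and 361 in neurons. The neural transcription factor gene Pax6 stood at 5.79 ± 2.07 CPM in ESC and 81.1 ± 20.8 CPM in neurons. Pfn2, the neuronal profilin gene, had counts of 1, 4 and 0 in ESC against 8, 11 and 8 in neurons. Keap1, the sensor of oxidative stress, stood at 30.9 ± 7.52 CPM in ESC and 4.26 ± 2.33 CPM in neurons. Of the 2 tested in both groups, 0 passed; Cnn3, an actin-binding calponin gene, had counts of 30, 17 and 9 in ESC against 11, 5 and 4 in neurons (edgeR adjusted p 0.115). In GENCODE release M21 the longest transcript held GTCTTCC for 18 of the 23 genes (78.3%), against 26.6% of 21924 protein-coding genes; the genes were listed as reported targets, so this is no independent evidence. Basp1 and Keap1 were among those with no match, and Pax6 and Pfn2 had 2 each.

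Of 15 immediate-early genes, a class known to rise in brain without Cdr1as, only Junb and Dusp1 were tested, and edgeR called 0 of them (0 at an unadjusted p under 0.05 as well, and 0 by DESeq2). Junb stood at 179 ± 16.7 CPM in ESC and 178 ± 21.9 CPM in neurons, and Dusp1 at 11.5 ± 4.48 and 16.6 ± 3.81 CPM. Scaled to total counts, which raised the median over all 7150 genes by 0.73 on the log2 scale, both passed as higher in neurons. Fos had 1, 1 and 2 counts in ESC and 0 in neurons.

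Of 18 host genes of other circular RNAs abundant in brain, 6 were tested and 5 passed, 3 as higher and 2 as lower; the median log2 fold change was 1.29. In both groups 4 of the 6 reached the minimum, and of these 1 rose and 2 fell. Rtn4, the Nogo gene, rose from 21.1 ± 0.71 to 98.3 ± 26.6 CPM (2.21 ± 0.25 SE on the log2 scale; edgeR adjusted p 1.98e-10). It shares 1284 bases with Eml6, which had counts of 8, 6 and 6 in ESC against 34, 28 and 24 in neurons. Tulp4 fell from 177 ± 15.8 to 9.16 ± 2.76 CPM (−4.24 ± 0.26 SE on the log2 scale; edgeR adjusted p 1.13e-17), while Gm5812, which shares 957 bases with it, had counts of 31, 17 and 16 in ESC against 72, 59 and 55 in neurons. Dlgap1, a postsynaptic scaffold gene, fell from 70.1 ± 6.46 to 14.6 ± 4.13 CPM (−2.26 ± 0.28 SE on the log2 scale; edgeR adjusted p 3.03e-09), and AC079441.1 opposite to it had counts of 17, 10 and 11 in ESC against 212, 164 and 213 in neurons. At Tulp4 and Dlgap1 the partner's counts were higher in neurons in every library. Whether the falls of Tulp4 and Dlgap1, or the rise of Rtn4, depend on the strand setting was not tested. Zfp609, the only tested host gene with no exonic overlap on the opposite strand, stood at 4.88 ± 0.37 CPM in ESC and 32.8 ± 2.39 CPM in neurons and had reached the minimum in neurons alone.

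Of 11 genes for proteins that form or remove circular RNAs, 8 were tested and 7 passed, 3 higher and 4 lower, with a median log2 fold change of −1.11. The minimum was reached in both groups by 4 of the 8, of which 2 rose and 1 fell. Ilf2 rose by 1.44 ± 0.26 (SE) on the log2 scale (edgeR adjusted p 5.38e-06) and Upf1, a decay helicase gene, by 1.08 ± 0.27 (edgeR adjusted p 0.000384). Ilf2 shares 354 bases with Snapin, which fell (331, 272 and 296 counts in ESC against 56, 62 and 47 in neurons; edgeR adjusted p 2.76e-12). Whether the rise of Ilf2 depends on the strand setting was not tested. Qk, a splicing factor gene that promotes circles, stood at 13.2 ± 4.71 and 13.7 ± 2.43 CPM and did not pass (edgeR adjusted p 0.934). Of those that reached it in 1 group, Adar, the RNA-editing enzyme known to restrain circle formation, had counts of 5, 0 and 0 in ESC against 20, 15 and 7 in neurons, and shares 1365 bases with the receptor gene Chrnb2. G3bp1, a stress granule gene, had counts of 44, 23 and 45 in ESC against 0, 1 and 0 in neurons, a ratio of ESC to neuron of 66.6 with an exact 95% counting interval of 11.7 to 2653.

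Of 13 genes that act with Oip5 in CENP-A deposition, 4 were tested and 4 were called lower, with a median log2 fold change of −4.29; only 2 of the 4 reached the minimum in both groups. Cenpk, an inner kinetochore gene and among those 2, fell from 247 ± 7.07 to 12.3 ± 2.81 CPM (−4.33 ± 0.23 SE on the log2 scale; edgeR adjusted p 8.8e-20). Rbbp4, a histone chaperone gene that reached it in ESC alone, had counts of 77, 41 and 52 in ESC against 0, 0 and 5 in neurons. Plk1, the mitotic kinase gene and likewise over the minimum in ESC alone, had 21, 14 and 17 against 0, 0 and 1, a ratio of ESC to neuron of 30.9 with an exact 95% counting interval of 5.31 to 1244. Plk1 shares 156 bases with Gm44985, whose counts were 1152, 813 and 936 against 20, 20 and 27. In Oip5's own complex, Mis18a had too few counts to be tested (2, 2 and 1 against 0 in each neuron library). Oip5 itself was below the filter, and its groups overlapped.

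**Figure D5:**
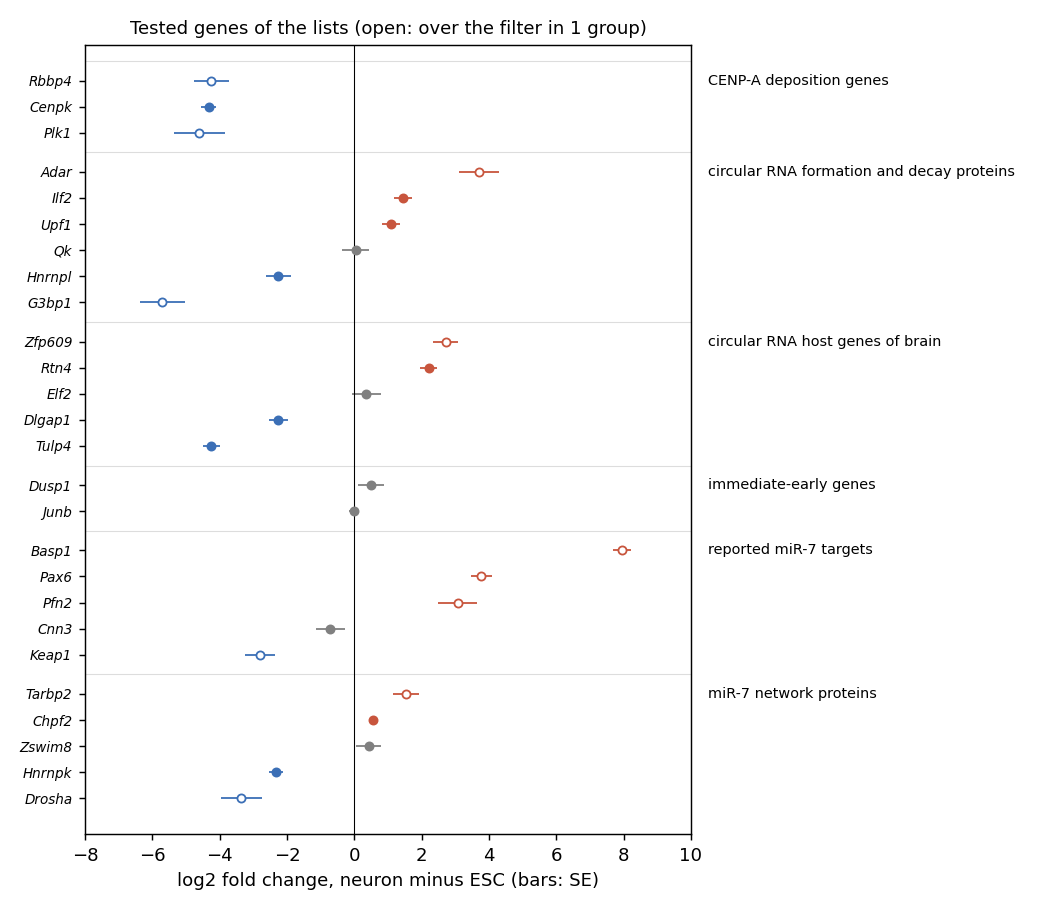
Log2 fold change, neuron minus ESC (x axis, bars are the SE), of tested genes of the 6 lists, 5 of which are not drawn, with genes called higher in neurons in red, lower in blue and not called in grey; open points are genes that reached the filter's minimum in 1 group alone. The CENP-A deposition genes drawn are all lower, and the other lists have genes on both sides or no call.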

How the data were processed

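RNA from 3 ESC and 3 neuron samples was sequenced as paired-end, oligo-dT primed libraries, per the labels' protocols. The authors deposited whole-number counts per gene; the submitters' processing notes name cutadapt, STAR, RSEM and GRCm39 (mm39). The counting tool's strand setting and its handling of reads with several matches are not given in the sources used here. Printed sequences are on GRCm38, and no position was converted.

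Symbols were found for 91.3% of genes. Genes passing filterByExpr (minimum count 10) were fitted with edgeR 4.0.16 (TMM, robust glmQLFit, glmQLFTest, Benjamini-Hochberg threshold 0.05, R 4.3.3) with no covariate. The SE is the absolute log2 fold change divided by the square root of F. On simulated counts for 7150 genes with 200 changed 4-fold, 92.5% of these were called and 6.09% of calls were unchanged genes. Few genes changed in that simulation, while 85.6% of tested genes were called in the data. Its error rates therefore need not hold for the data. Opposite-strand overlap used bedtools 2.31.1.

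The members, gene lists and rules were chosen with earlier results of these data known. Named genes were the members, genes within 200 kb with at least 10 counts, the 3 highest and 3 lowest called genes of each list, the 5 nearest profiles, the 5 largest neuron ratios and exon-sharing partners; others were picked after their values were seen, and some list genes are counted but not reported here by name. Alternatives were other scalings (DESeq2 size factors, total counts), filters, a replicate block, DESeq2 1.42.0, genes with no opposite exonic overlap, and leaving out each replicate.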

Additional observations from a re-analysis of the deposited data

How the results depend on the processing

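Without the count filter, more genes were tested, and 11762 of 28820 passed. From the lists, 11 of 23 tested miR-7 targets, 7 of 15 immediate-early genes, 9 of 18 circular RNA hosts and 7 of 13 CENP-A deposition genes passed. Restricted to genes without opposite-strand exonic overlap, fewer were tested, and 2071 of 2476 passed. From the lists, 1 of 3 tested microRNA pathway genes and 1 of 1 circular RNA hosts passed there. So did 3 of 3 circle formation or decay genes and 1 of 1 CENP-A deposition genes, while 0 immediate-early genes were tested. Scaling to total counts gave 2 immediate-early genes, moved the log2 lower bound for Cdr1 from 9.18 to 9.91 and reversed Oip5 to 0.34. A mean of at least 10 counts also gave 2 immediate-early genes; the cause was not tested. With a minimum mean of 30 neuron counts, 0.994% of genes varied at least as much as Cdr1.

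Leaving out each replicate in turn gave 5430 to 7353 genes, 4 to 5 microRNA pathway genes, 3 to 10 miR-7 targets, 0 to 1 immediate-early genes, 5 circular RNA hosts throughout, 5 to 7 formation or decay genes and 3 to 5 CENP-A deposition genes. The miR-7 targets numbered 10, 9 and 9 without neuron replicate 1, 2 and 3, where 11, 11 and 12 were tested, not 6. The log2 lower bound for Cdr1 was 8.69 to 9.39, and the log2 difference was −1.34 to −0.41 for Oip5os1 and −0.75 to −0.20 for Oip5. C230004F18Rik gave no value under any setting, both groups being under the floor.

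With the replicate block 6088 genes passed and the count of each list was as without it. Deviations of same-numbered samples correlated at 0.0189, 0.0039 and −0.0223, and those of unlike-numbered samples at −0.0245 to 0.0194. These values show no sign of pairing by number but cannot exclude one. The Wald test of DESeq2 gave 5774 genes.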
